A study of Mus musculus with 6 samples.

Results

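The tissue inhibitors of metalloproteinases (TIMPs) are a family of 4 secreted proteins encoded in the mouse by Timp1, Timp2, Timp3 and Timp4. They were taken by gene name from the count table, in which all 4 are present among 24391 genes, and all 4 passed the filter on low counts that left 15937 genes for testing. Their transcripts were read in brachiocephalic arteries with atherosclerotic lesions, an artery segment made of smooth muscle, endothelium, adventitia and, in lesions, macrophages. The tested mice were Col15a1 -/- (KO, n = 3 animals) and the mice they were compared with were wild type (WT, n = 3 animals). Both groups had a C57BL/6 background and ate a Western diet over 18 weeks. Type XV collagen, found in basement membrane zones, is the product of Col15a1. The series title describes its deletion as specific to smooth muscle cells, and the labels name neither a Cre driver, an Apoe genotype nor an age. Each library was made from a mixture of cell types, so fewer cells of a type and less RNA per cell cannot be told apart in any value below.

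TIMPs bind the catalytic zinc of matrix metalloproteinases (MMPs) with their N-terminal domain and so block cleavage of collagens, elastin and proteoglycans. Their C-terminal domain lets some of them also bind latent proenzymes, as TIMP1 does with proMMP9 and TIMP2 and TIMP4 do with proMMP2. TIMP3 differs from the others in that it sticks to the matrix. It also inhibits several ADAM and ADAMTS enzymes. In arteries the balance of MMPs and TIMPs is known for its part in remodelling of the wall and of the fibrous cap.

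Before the results on the family, the libraries themselves were examined. The targeted gene Col15a1 had 193, 198 and 91.0 CPM (counts per 1000000 counts of library size, scaled by TMM, the trimmed mean of M values) in KO 1, KO 2 and KO 3, against 574, 407 and 501 CPM in WT 1, WT 2 and WT 3. Every KO library was therefore below every WT library, with reads remaining in each. Libraries held 22223584 to 26982005 counts. KO 3 and WT 2 stood apart from the others: summed transcripts of 18 sympathetic neuron markers were at 9335 CPM in KO 3 and 4930 CPM in WT 2, against 341 to 511 CPM in the other libraries. Smooth muscle (Myh11 and Acta2), endothelial (Vwf and Pecam1) and macrophage (Spp1 and Lyz2) markers were present in all 6 libraries.

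Timp1, Timp3 and Timp4 each lie inside an intron of a synapsin gene, on the opposite strand, and this bears on how their reads were counted. In mm9 coordinates, Timp1 (chromosome X, 20447292 to 20451863, plus strand) lies in an intron of Syn1 that is 41168 bases long. Timp3 (chromosome 10, 85763157 to 85812250, plus strand) lies in an intron of Syn3, and Timp4 (chromosome 6, 115195634 to 115201867, minus strand) in an intron of Syn2. Timp2 (chromosome 11, 118162375 to 118216725, minus strand) instead holds another gene, BC100451, in an intron on its own strand. No exon bases are shared in any of these pairs. The command set no strand option, so a read from an unspliced synapsin transcript that falls on a Timp exon is counted for the Timp gene.

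Whether the sequences next to the gene starts bear on the difference of any member between KO and WT was not tested. They are shown here for each member as a description. These are the 120 bases before each start in RefSeq (GRCm38.p6, a different build from the count table), written 5′ to 3′ on the gene's strand, with GC boxes (GGGCGG on either strand) in capitals. The windows are chrX:20870046-20870165 (plus strand) for Timp1, chr11:118355412-118355531 (minus) for Timp2, chr10:86300292-86300411 (plus) for Timp3 and chr6:115252206-115252325 (minus) for Timp4.
Timp1: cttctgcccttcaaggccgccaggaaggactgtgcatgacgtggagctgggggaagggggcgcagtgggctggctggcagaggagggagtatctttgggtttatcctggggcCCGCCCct
Timp2: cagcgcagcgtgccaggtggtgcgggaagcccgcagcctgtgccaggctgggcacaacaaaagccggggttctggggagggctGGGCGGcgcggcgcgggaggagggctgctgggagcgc
Timp3: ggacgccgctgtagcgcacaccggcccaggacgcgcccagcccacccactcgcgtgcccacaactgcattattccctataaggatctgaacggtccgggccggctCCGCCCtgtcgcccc
Timp4: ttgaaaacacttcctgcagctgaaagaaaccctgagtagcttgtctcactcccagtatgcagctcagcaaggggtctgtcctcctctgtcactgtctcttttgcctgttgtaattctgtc

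A GC box, the element bound by Sp1, was present once in each of Timp1, Timp2 and Timp3, starting 8, 37 and 15 bases before the gene start, and these letters were not in the Timp4 window. Of 32851 promoters in the table, 26.5% held a GC box in a window of this length. GC content was 48.3% for Timp4, against 65.0% for Timp1, 75.0% for Timp2 and 69.2% for Timp3. Neither a TATA box (TATAAA, in 6.34% of promoters) nor an AP-1 site (TGANTCA, in 3.41%) was found on either strand of the 4 windows, and the motifs did not overlap.

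Levels were compared between the genes per length, as CPM per kilobase of exon. Timp3 was the most abundant member, at 311 ± 64.6 in KO and 330.0 ± 77.7 in WT (SD, n = 3 each). Timp2 followed at 198 ± 46.6 in KO and 262 ± 29.9 in WT, and Timp1 at 88.7 ± 58.1 in KO and 168 ± 31.9 in WT. Timp4 was the least abundant, at 8.27 ± 1.43 in KO and 2.62 ± 0.44 in WT.

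The order Timp3, Timp2, Timp1, Timp4 held within each of the 6 libraries. Timp3 was 1.07 to 1.72 times as abundant as Timp2 within a library, and the ranges of this neighbouring pair overlapped between libraries in WT but not in KO. Timp2 was 1.35 to 4.84 times as abundant as Timp1, and Timp1 was 3.10 (KO 3) to 66.8 (WT 1) times as abundant as Timp4. Among the genes tested, 99.4% had a lower mean level per length than Timp3, 98.98% lower than Timp2 and 98.0% lower than Timp1, while 42.5% were lower than Timp4. Timp1, Timp2 and Timp3 therefore belonged to the abundant transcripts of this tissue.

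**Figure D1:**
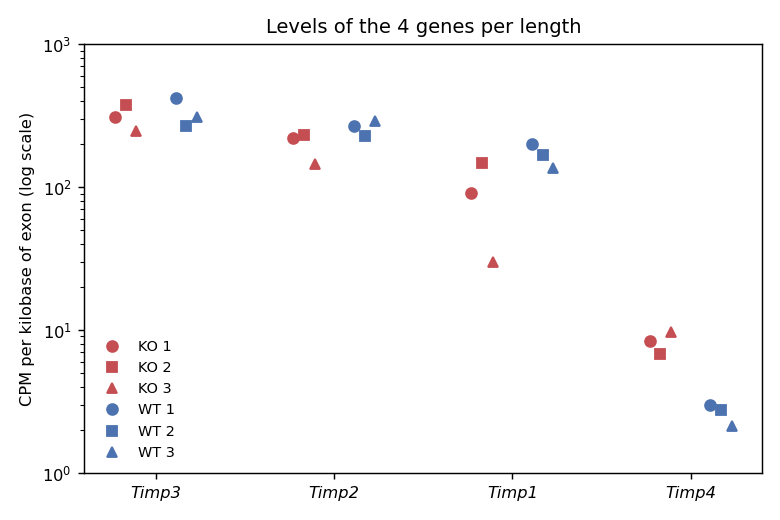
Level of each Timp gene per length, as TMM-scaled CPM per kilobase of exon on a log axis, with a point for each library (red, KO; blue, WT; symbols mark the replicate). Timp3, Timp2 and Timp1 lie between 29.9 and 416, and Timp4 lies between 2.13 and 9.63.

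Timp4, whose protein is best known from heart, fat and brain, was higher in every KO library. It had 11.9, 9.60 and 13.6 CPM in KO 1, KO 2 and KO 3, against 4.23, 3.90 and 3.01 CPM in WT 1, WT 2 and WT 3. The groups did not overlap, and the lowest KO library was above the highest WT library by more than counting error alone. The 95% Poisson interval of KO 2 (220 counts) began at 8.37 CPM, and that of WT 1 (93 counts) ended at 5.18 CPM; these intervals cover counting error only. Of all genes tested, 8.33% had every KO library above every WT library.

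The difference in Timp4 was 3.15-fold, with a log2 fold change of 1.66 (SE 0.22, 95% interval 1.12 to 2.19). By edgeR's quasi-likelihood test its unadjusted p of 0.00026 was the smallest of the 15937 genes, and its adjusted p (Benjamini-Hochberg over all of them) was 0.587. None of the 4 members was called in edgeR at an adjusted p of 0.05, and percent called over all genes was 0, with 8% at an unadjusted p under 0.05 (4.02% higher and 3.98% lower in KO). DESeq2 gave Timp4 a log2 fold change of 1.63 with an adjusted p of 1.48e-06; it called 0.145% of 16567 genes higher and none of the other members. The adjusted p in edgeR and limma-voom ran from 0.282 to 1.000 over the other settings. The log2 fold change was 1.45 to 1.78 with any library left out and 1.57 without KO 3 and WT 2, where edgeR called 0.00632% of genes and no member.

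Timp1, an inhibitor that is induced in inflamed and remodelling tissue, had 80.2, 129.95 and 26.6 CPM in KO 1, KO 2 and KO 3, against 178, 149.7 and 121 CPM in WT 1, WT 2 and WT 3. KO 3 was lowest by far, and KO 2 lay within the range of the WT libraries, so the groups overlapped. The means were 78.9 ± 51.7 CPM in KO and 149 ± 28.4 CPM in WT (SD, n = 3 each). The log2 fold change was -0.92 (SE 0.54, 95% interval -2.23 to 0.39) with an edgeR adjusted p of 0.710. It depended on single KO libraries, at -0.51 without KO 3, -1.49 without KO 2 and -0.52 without KO 3 and WT 2.

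Timp2, which inhibits MMPs broadly and takes part in the activation of proMMP2 by MMP14, had 795, 832 and 523 CPM in KO 1, KO 2 and KO 3. It had 974, 828 and 1040 CPM in WT 1, WT 2 and WT 3. KO 1 and KO 3 were below the WT libraries, while KO 2 was level with WT 2. The log2 fold change was -0.40 (SE 0.22, 95% interval -0.95 to 0.15) with an edgeR adjusted p of 0.695, and it was -0.22 without KO 3 and -0.32 without KO 3 and WT 2.

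Timp3, the matrix-bound member, had 1446, 1766 and 1162 CPM in KO 1, KO 2 and KO 3, against 1949, 1245 and 1440.0 CPM in WT 1, WT 2 and WT 3. High and low libraries occurred in both groups. The log2 fold change was -0.083 (SE 0.26, 95% interval -0.71 to 0.54) with an edgeR adjusted p of 0.937. Its sign turned without KO 3 (0.056) and without WT 1 (0.12). The interval does not show equal levels in the groups, but a difference as large as that of Timp4 lies outside it.

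**Figure D2:**
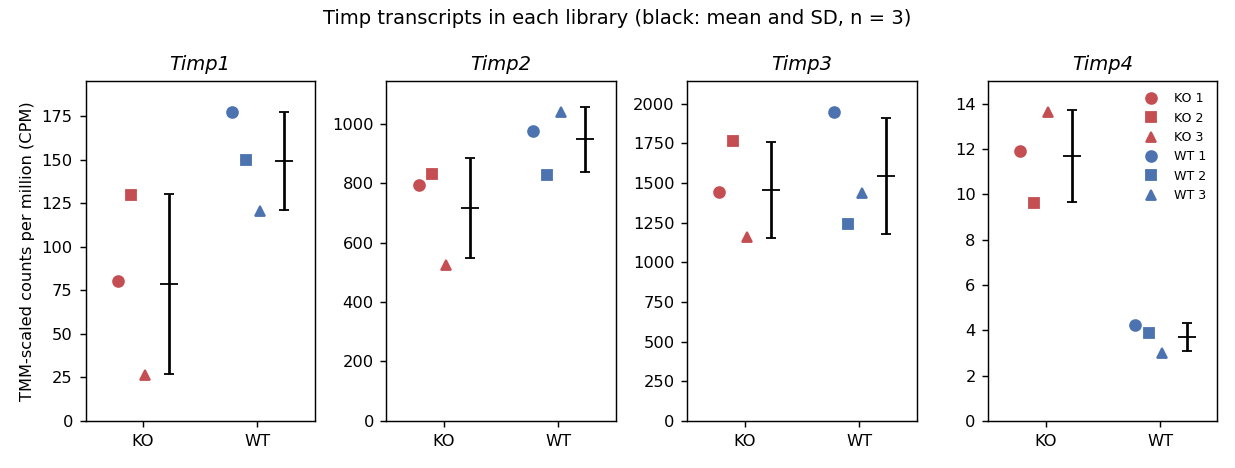
TMM-scaled CPM of Timp1, Timp2, Timp3 and Timp4, with a point for each library (red, KO; blue, WT), the mean and SD of the 3 libraries of a group in black, and a linear axis from 0 in each panel. Timp4 is at 9.60 CPM or more in KO and at 4.23 CPM or less in WT, while the groups overlap for the other genes.

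The share of each member in the summed transcript level of the family was also compared. Of the summed level per length of the 4 genes, Timp4 made up 1.34%, 0.892% and 2.23% in KO 1, KO 2 and KO 3, against 0.336%, 0.414% and 0.291% in WT 1, WT 2 and WT 3. Timp1 made up 14.4%, 19.2% and 6.91% in the KO libraries, against 22.5%, 25.3% and 18.5% in the WT libraries. The Timp4 shares did not overlap between the groups. Neither did those of Timp3, at 49.3%, 49.7% and 57.4% in the KO libraries, against 46.9%, 40.0% and 42.0% in the WT libraries. The Timp1 and Timp2 shares overlapped. Timp2 and Timp3 together made up most of the sum in every library, with Timp3 at 52.1 ± 4.61% in KO and 42.9 ± 3.57% in WT (SD, n = 3 each). No test was run on these shares, since they combine the members.

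The synapsin genes that surround Timp1, Timp3 and Timp4 are neuronal and were highest in KO 3 and WT 2. Syn2, around Timp4, had 19.6, 14.3 and 402 CPM in KO 1, KO 2 and KO 3, against 18.3, 222 and 23.4 CPM in WT 1, WT 2 and WT 3. KO 3 had the highest level of both Syn2 and Timp4 (13.6 CPM), and within KO the libraries had the same order for both genes. Within WT they did not: WT 2 had the second highest Syn2 level and 3.90 CPM of Timp4, between the other WT libraries. KO 1 and KO 2, with Syn2 near the level of WT 1 and WT 3, had Timp4 at 11.9 and 9.60 CPM.

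Syn1, around Timp1, was at 44.1 CPM in KO 3, the library with the lowest Timp1 level, and at 4.77 to 31.7 CPM in the others. Syn3, around Timp3, was at 13.7 to 33.2 CPM in KO and 11.9 to 27.2 CPM in WT, far below Timp3 on the same scale. BC100451, inside Timp2, was at 14.6 to 28.5 CPM in KO and 15.6 to 21.3 CPM in WT. How many reads of unspliced synapsin transcripts fell on Timp exons was not tested.

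Among the enzymes that TIMPs inhibit, most MMP genes had lower values in KO. Of 23 MMP genes, 18 were tested; 12 were negative and 6 positive on the log2 scale, against 39.1% and 60.9% of all genes tested. The median log2 fold change was -0.53, beside 0.068 over all genes tested. Without KO 3 and WT 2 the median was -0.28, and with a library left out it ran from -0.82 (without KO 1) to -0.34 (without WT 3). Mmp1b and Mmp7 were listed at 0 in every library. No member was called in either direction in edgeR or DESeq2, and 3 had an unadjusted p under 0.05 in edgeR, all lower, against 3.98% of all genes tested. In 6 of the 18 every KO library was below every WT library, against 8.38% of all genes, and in none was it above.

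Mmp2, the gelatinase whose proenzyme binds TIMP2 and TIMP4, had 303, 321 and 189.5 CPM in KO 1, KO 2 and KO 3, against 448, 391 and 411 CPM in WT 1, WT 2 and WT 3. Its log2 fold change was -0.62 (SE 0.22, edgeR adjusted p 0.589). Mmp14, the membrane-bound activator of proMMP2, had 141, 149.5 and 57.3 CPM in the KO libraries, against 217, 199 and 227 CPM in the WT libraries (log2 fold change -0.89, SE 0.36, edgeR adjusted p 0.617). Without KO 3 the log2 fold change of Mmp14 was -0.56. The groups of both genes were apart, with KO 3 lowest. Mmp13, a collagenase, had 38.5, 28.8 and 3.15 CPM in the KO libraries, against 76.6, 172 and 51.9 CPM in the WT libraries. The stromelysin Mmp10 averaged 0.77 ± 0.41 CPM in KO and 1.98 ± 0.82 CPM in WT (SD, n = 3 each). Mmp9, the gelatinase bound by TIMP1, was scarce, at 3.54, 4.93 and 3.55 CPM in KO 1, KO 2 and KO 3, against 3.68, 2.66 and 3.09 CPM in WT 1, WT 2 and WT 3, with overlapping groups.

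The ADAM and ADAMTS enzymes, several of which are inhibited by TIMP3, had a median nearer to that of all genes than the MMPs had. Their split into negative and positive values was in the same proportion as that of the MMPs. Of 13 genes, 12 were tested. Of these, 8 were negative and 4 positive, against 39.1% and 60.9% of all genes tested. The median log2 fold change was -0.13 (-0.16 without KO 3 and WT 2, and -0.017 without WT 3). None was called in edgeR or DESeq2, and none had an unadjusted p under 0.05 in edgeR. Adam17, the sheddase of tumour necrosis factor, had 104, 106 and 64.8 CPM in KO 1, KO 2 and KO 3, against 122, 117 and 119 CPM in WT 1, WT 2 and WT 3, and its edgeR adjusted p was 0.687. Every KO library was below every WT library for Adam17 and above for Adam33, the 2 members of this list whose groups did not overlap; Adam33 was named after its values were seen. Of all genes tested 16.7% had groups that did not overlap, a share near that of this list. The aggrecanase Adamts4 averaged 7.13 ± 3.73 CPM in KO and 13.7 ± 3.39 CPM in WT. Adam9 averaged 209.8 ± 64.0 CPM in KO and 282 ± 21.5 CPM in WT, and Adam10 averaged 113 ± 27.5 CPM in KO and 142 ± 10.96 CPM in WT.

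Other inhibitors of metalloproteinases and receptors that bind or clear TIMPs had positive values in a share near that of all genes tested. The members whose groups did not overlap were all lower in KO. All 18 genes were tested. Of these, 11 were positive and 7 negative, against 60.9% and 39.1% of all genes tested. The median log2 fold change was 0.093. It turned negative without KO 2 (-0.13), without KO 3 (-0.12), without WT 2 (-0.0015), without WT 3 (-0.019) and without KO 3 and WT 2 (-0.20). None was called in edgeR or DESeq2, 1 had an unadjusted p under 0.05 (Cd74, lower). In 5 of the 18 every KO library was below every WT library, against 8.38% of all genes, and in none was it above, against 8.33% of all genes. The positive members included Spock1, Spock2 and Spock3, named after their values were seen, which were highest in KO 3 and WT 2 as the neuron markers were. Reck, the membrane-anchored MMP inhibitor, averaged 79.4 ± 15.5 CPM in KO and 66.97 ± 13.2 CPM in WT, with overlapping groups. Lrp1, the endocytic receptor that takes up TIMP3 and MMP complexes, averaged 3416 ± 983 CPM in KO and 4601 ± 825 CPM in WT, also with overlap.

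Cd74, the invariant chain, which also binds TIMP1 at the cell surface, averaged 342 ± 52.1 CPM in KO and 555 ± 141 CPM in WT. The log2 fold change of Cd74 was -0.70 (SE 0.23, edgeR adjusted p 0.587), and -0.36 without KO 3 and WT 2. Cd44, a hyaluronan receptor, averaged 182 ± 83.3 CPM in KO and 322 ± 17.4 CPM in WT. Thbs2, a thrombospondin that takes part in clearance of MMP2, averaged 136 ± 43.3 CPM in KO and 208 ± 27.8 CPM in WT. Pzp, a protease inhibitor of the alpha-2-macroglobulin family, averaged 2.25 ± 0.93 CPM in KO and 1.08 ± 0.47 CPM in WT (SD, n = 3 each).

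**Figure D3:**
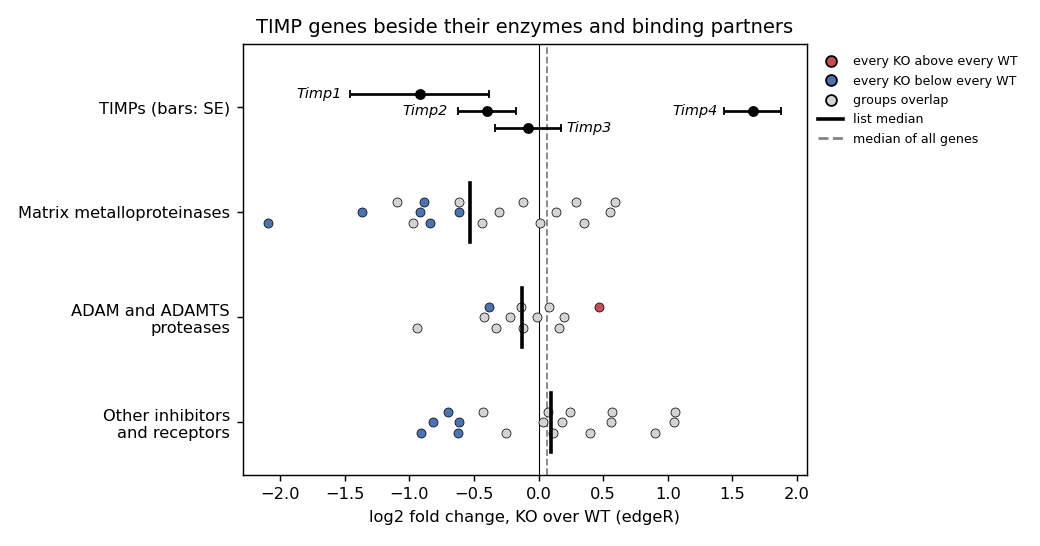
Log2 fold change (KO over WT, edgeR) of the 4 Timp genes with SE bars, above the tested members of 3 lists of partner genes, each point a gene coloured by whether its groups overlap, with list medians as black bars. Timp4 lies at 1.66, to the right of every partner shown, and the MMP median lies at -0.53, left of the median of all genes (dashed, 0.068).

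Inhibitor and enzyme transcripts were set against each other within each library as log2 ratios of the levels per length, with a pseudocount of 0.5 counts. For 5 pairs known to bind, the 2-sided exact permutation test of 3 against 3 libraries can give no p below 0.1, so none could pass a threshold of 0.05. The Timp4 to Mmp2 ratio was -3.57, -3.96 and -2.69 in KO 1, KO 2 and KO 3, against -5.62, -5.54 and -5.98 in WT 1, WT 2 and WT 3. The groups were apart by 2.31 on the log2 scale (exact permutation p 0.1, adjusted over 5 pairs 0.125). Every KO library was above every WT library for Timp4 and below for Mmp2. The separation of this ratio, and so its p, therefore followed from the single genes and adds nothing to them. Mmp2 transcripts were more abundant than Timp4 transcripts in every library.

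The Timp2 to Mmp14 ratio was 2.02, 2.00 and 2.71 in the KO libraries, against 1.69, 1.58 and 1.72 in the WT libraries, a difference of 0.58 that was 0.35 without KO 3 and 0.31 without KO 3 and WT 2. The Timp2 to Mmp2 ratio was 1.14, 1.12 and 1.21 in KO, against 0.87, 0.83 and 1.09 in WT, a difference of 0.23 that was 0.15 without KO 3 and WT 2. For both pairs every KO library was above every WT library (exact permutation p 0.1, adjusted 0.125). Timp2 itself had lower mean CPM in KO, and both enzymes had a more negative log2 fold change than Timp2.

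The Timp1 to Mmp9 ratio was 6.33, 6.55 and 4.73 in KO, against 7.42, 7.64 and 7.12 in WT, a difference of -1.52 (exact permutation p 0.1, adjusted 0.125). It was -0.95 without KO 3 and -0.83 without KO 3 and WT 2. The Timp3 to Adam17 ratio averaged 3.96 ± 0.19 in KO and 3.63 ± 0.30 in WT (SD, n = 3 each), with overlapping groups (exact permutation p 0.2, adjusted 0.2). Its difference of 0.34 was 0.21 without WT 2 and 0.13 without KO 3 and WT 2.

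**Figure D4:**
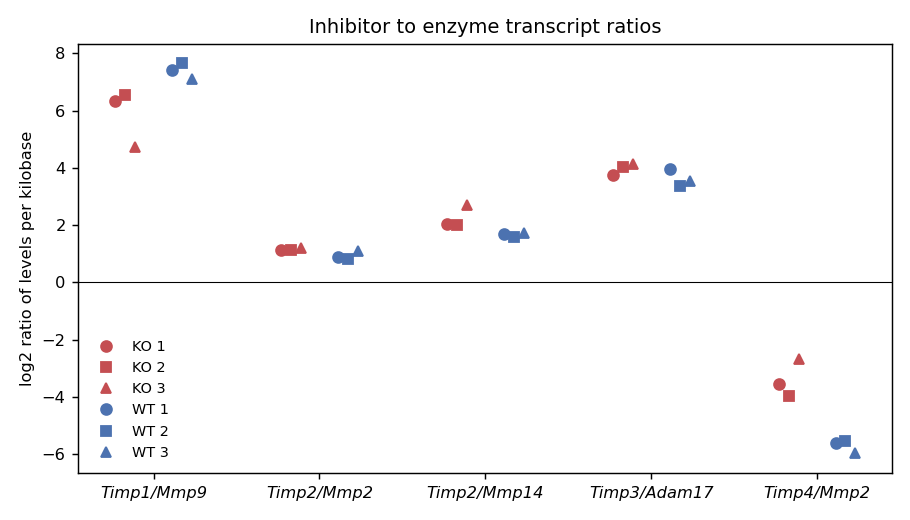
Log2 ratio of inhibitor to enzyme transcript, per kilobase of exon, for 5 pairs, with a point for each library (red, KO; blue, WT). The Timp4 to Mmp2 ratio is -3.96 or more in KO and -5.54 or less in WT, and the Timp1 to Mmp9 ratio is 6.55 or less in KO and 7.12 or more in WT.

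The genes whose pattern over the 6 libraries was most like that of each member were found among 12018 genes with a mean of at least 5 CPM. Likeness was the root mean square, over libraries, of the difference between the genes' deviations from their own mean log2 CPM, so a smaller value is a closer pattern. This is a description over 6 libraries that share depth and the neuronal transcripts of KO 3 and WT 2. For Timp4 the closest were Gabrq (0.28), a subunit gene of the GABA-A receptor, Aspg (0.32), an asparaginase, Bche (0.34), which encodes butyrylcholinesterase, Sphkap (0.35) and Fabp3 (0.35), the fatty acid binding protein of heart muscle. All 5 had every KO library above every WT library, as did 8.33% of all genes tested, and since they were chosen for their likeness to Timp4 nothing is read from this. Fabp3 averaged 34.8 ± 15.3 CPM in KO and 13.6 ± 2.72 CPM in WT (SD, n = 3 each), with a log2 fold change of 1.36 (SE 0.33, edgeR adjusted p 0.587) that was 0.84 without KO 3 and WT 2.

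For Timp1 the close genes included Anxa8 (0.21), the collagen-binding proteoglycan gene Lum (0.22), the leukocyte adhesion molecule gene Vcam1 (0.22) and Tnfsf8 (0.23), which encodes the CD30 ligand. Lum averaged 778 ± 426 CPM in KO and 1666 ± 135 CPM in WT, and KO 3 was its lowest library, as for Timp1. Timp2 was closest to Ckap4 (0.032), the semaphorin receptor gene Plxnb2 (0.037), Tor4a (0.038), the collagen galactosyltransferase gene Colgalt1 (0.041) and Snx24 (0.042). Timp3 was closest to Gpr34 (0.025), Snx18 (0.063), Twsg1 (0.065), Tmem43 (0.066) and Hmgn1 (0.073). The closest genes of Timp4 were farther from it than those of the other members were from theirs.

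The levels of markers of other cell types stand here beside those of Timp4 and Timp1. All 17 adipocyte markers were tested and none was at 0. Of these, 16 were positive in log2 fold change, against 60.9% of all genes tested. Their median was 0.74, and 0.53 without KO 3 and WT 2. Their summed level was 2660 to 3800 CPM in KO and 1228 to 2498 CPM in WT, without overlap. In 8 of the 17 every KO library was above every WT library, against 8.33% of all genes, and 4 had an unadjusted p under 0.05, all higher, against 4.02% of all genes; none was called in edgeR. Lpl and Plin4, the most abundant, had overlapping groups. Ucp1, the uncoupling protein of brown fat, named after its values were seen, had 192, 225 and 289 CPM in KO 1, KO 2 and KO 3, against 121, 25.3 and 95.3 CPM in WT 1, WT 2 and WT 3. Ucp1 was thus highest in KO 3, as Timp4 was, and lowest in WT 2. No other adipocyte marker was highest in KO 3. The adipocyte sum did not order the libraries within groups as Timp4 did. KO 3 had the highest Timp4 and the lowest adipocyte sum of the KO libraries, and WT 2, with the lowest sum of all, had more Timp4 than WT 3. The part of fat cells in the Timp4 difference was not tested.

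Cardiac muscle markers, of which 9 of 12 were tested, were all positive in log2 fold change, against 60.9% of all genes tested. Their median was 0.73, and 0.40 without KO 3 and WT 2. Their summed levels were 220 to 289 CPM in KO and 132 to 225 CPM in WT, which overlapped. Ryr2 and Myh6 were the most abundant, Ryr2 at 184 ± 39.4 CPM in KO and 122 ± 14.6 CPM in WT, while the ventricular genes Myl2 and Myl3, named after their values were seen, were below 1 CPM in all libraries. The 15 skeletal muscle markers tested, of 16, also had positive log2 fold changes, against 60.9% of all genes. Their sum was 488 CPM in KO 1 and 25.1 to 139 CPM in the other libraries, led by Myh4 and Acta1. Timp4 had 11.9, 9.60 and 13.6 CPM in KO 1, KO 2 and KO 3. The part of cardiac and skeletal muscle cells in the Timp4 difference was not tested.

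Beside the lower values of Timp1, 15 of 18 macrophage markers were negative in log2 fold change, against 39.1% of all genes tested. Their median was -0.91, and -0.62 without KO 3 and WT 2. In 15 every KO library was below every WT library, against 8.38% of all genes, and in 1 it was above, against 8.33%. In edgeR 9 were lower and 1 higher at an unadjusted p under 0.05, against 3.98% and 4.02% of all genes, and none was called. The macrophage markers summed to 2172 to 7242 CPM in KO, lowest in KO 3, and 9697 to 11382 CPM in WT, and none was at 0. Of 13 chondro-osteogenic markers tested, which share Spp1 with the macrophage list, 11 were negative, against 39.1% of all genes, with a median of -0.55. The sum was 462 to 2751 CPM in KO and 4289 to 4578 CPM in WT, and Spp1 and Prg4 led it. Spp1 alone had 218 to 2353 CPM in KO and 3455 to 3925 CPM in WT. Prg4 had 35.3 to 91.5 CPM in KO and 171 to 204 CPM in WT. The gap between the sums is thus mostly that of Spp1, and not separate from the macrophage list. Adventitial fibroblast markers, led by Dcn and Lum, summed to 3284 to 5857 CPM in KO and 4490 to 6809 CPM in WT. Of these 12, 4 were negative, against 39.1% of all genes. The part of these cell types in the values of Timp1 was not tested.

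The summed levels of the remaining marker lists overlapped between the groups, and most of their markers were positive in log2 fold change. Of 14 contractile smooth muscle markers 13 were positive, with a median of 0.38, and 0.44 without KO 3 and WT 2. Positive values were also found for 10 of 12 endothelial, 9 of 10 Schwann cell and 18 of 18 neuron markers. These shares stand against 60.9% of all genes tested. The neuron median was 0.72, and -0.26 without KO 3 and WT 2. Contractile smooth muscle markers summed to 8319 to 19985 CPM in KO and 7572 to 13429 CPM in WT, and endothelial markers to 1430 to 2013 CPM in KO and 1153 to 1980 CPM in WT. Schwann cell markers, Pmp22 among them, summed to 268 to 704 CPM in KO and 232 to 489 CPM in WT, highest in KO 3 and WT 2 as were the neuron markers, led by Slc6a2 and Dbh.

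**Figure D5:**
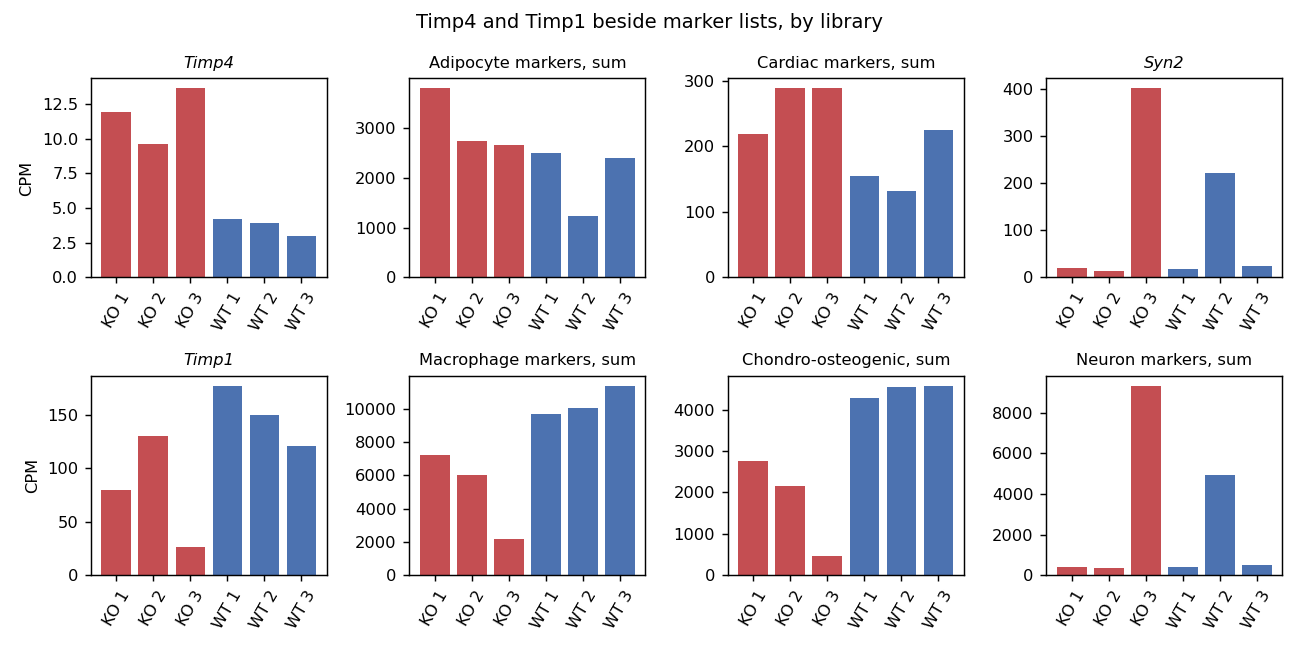
Bars give TMM-scaled CPM in each library (red, KO; blue, WT) for Timp4, Timp1 and Syn2 and the summed CPM of 5 marker lists, on linear axes from 0. Timp4 is at 9.60 to 13.6 CPM in KO and 3.01 to 4.23 CPM in WT, while Syn2 and the neuron markers are high in KO 3 and WT 2, in both groups.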

How the data were processed

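RNA sequencing libraries came from flash-frozen brachiocephalic arteries, extracted with Trizol, per the labels' protocols. The deposited values are raw read counts per gene, produced, per the file headers, by featureCounts 1.4.6-p4 from exons in UCSC's mm9 annotation, with no option for strand, pairs or multi-mapping reads. The submitters' processing notes also name CASAVA, STAR (version given as 3.0) and DESeq2. Of the alignments, 32.6% to 36.9% were assigned to genes; depth therefore limits mainly Timp4, with 78 to 346 counts. No pair of libraries agreed within sampling noise, and sample titles gave the groups.

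KO was tested against WT with edgeR 4.0.16 (R 4.3.3; glmQLFit and glmQLFTest, TMM, filterByExpr), with p-values adjusted over all genes tested, and checked with DESeq2 1.42.0 and limma-voom (limma 3.58.1). The edgeR step was tested on simulated data. CPM are counts per 1000000 of TMM-scaled library size; levels per length divide CPM by exon length. Standard errors were derived from the F statistic. Other settings were other scalings and filters, a replicate block, and each library left out; leaving out KO 3 and WT 2 was chosen after seeing the data.

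Named genes were the members, Col15a1, overlapping genes, 6 partner genes, the 4 partners per list with the smallest unadjusted p at 1 CPM or more, the 5 genes most like each member, and the 2 most abundant markers per list; some genes that this rule names are not reported here. The members, lists and settings were chosen with earlier results of these data known. Ddc8, a list entry, was matched to no name in the table.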

Additional observations from a re-analysis of the deposited data

How the results depend on the processing

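Timp4 kept a positive log2 fold change under all 15 alternatives (1.45 to 1.78) and passed the threshold in DESeq2 alone (1.63). The count of genes called was 43 in DESeq2, 24 higher and 19 lower in KO, and 1, lower in KO, without KO 3 and WT 2; it was 0 in the other fits, leave-one-out fits included (0 to 0). Timp1 (-1.49 to -0.51) and Timp2 (-0.55 to -0.22) kept a negative sign with any library left out, while Timp3 ran from -0.25 to 0.12. The median of the other inhibitors and receptors lay between -0.13 and 0.078 in the leave-one-out fits and was -0.20 without KO 3 and WT 2; the cause was not tested. With the replicate number as a block (replicate block) Timp4 was at 1.65 and 0 genes were called. Correlations of deviations from the group means were 0.43, -0.68 and -0.58 for same-numbered libraries, and 0.77 for KO 3 with WT 2. Since KO 3 and WT 2 share high neuronal transcripts, these correlations cannot show whether the numbers pair animals. With 3 animals a group, spread between animals rather than counting limits Timp1, Timp2 and Timp3.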
